A study of Mus musculus with 41 samples.

Results

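The 500 widest promoter domains of histone lactylation in mouse white adipocytes (ADIPO) are described here. Lactylation of lysine 18 of histone H3 (H3K18la) was profiled by CUT&Tag, in which a transposase tethered to an antibody tags the DNA beside a histone mark for sequencing. The domains were selected on their width: among the 28767 H3K18la peaks of ADIPO, 28212 lay on chromosomes 1 to 19, and 12709 of those overlapped a promoter, taken as 2000 bp on each side of any annotated transcription start site (TSS). The 500 widest of the 12709 are the domains, and the other 12209 promoter peaks serve as the comparison. Width, rank and total signal were used to choose them and are given as description, with no test.

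The series holds 41 samples in 24 groups of 1 mark in 1 cell type, and there is 1 pooled peak set for each. The ADIPO nuclei came from the epididymal fat of 10-week-old female AdipoCre-NuTRAP mice, labelled C57BL/6 and untreated. In these mice adipocyte nuclei carry a tag through a Cre that is active in adipocytes, and tagged nuclei were captured from dounced frozen tissue. H3K18la and H3K27ac were profiled in ADIPO, with 2 samples each, and no H3K4me3 or H3K27me3 set of ADIPO was analysed here. The other cell types, all labelled as controls, were E14 mouse embryonic stem cells in serum-lif (mESC-ser) or 2i-lif medium (mESC-2i), primary myoblasts (MB) and myotubes (MT) of C57BL/6 mice, snap-frozen gastrocnemius muscle (GAS), bone marrow-derived macrophages grown in DMEM (BMDM) and macrophages sorted from calf muscle 2 days after hindlimb ischemia (PIM). The labels give C57BL/6 for GAS, BMDM and PIM, and the methods describe female C57Bl6/J mice of 8 to 12 weeks for muscle and macrophages. GAS is whole muscle and holds several cell types, whole cells were used for the stem cells and nuclei for all other types. Replicates were pooled before peaks were called, so no spread between ADIPO samples can be given and a set is 1 value per cell type. The study's quality table lists 1 of the 2 H3K27ac libraries of ADIPO as far shallower than the others.

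H3K18la is a histone acylation whose donor derives from lactate, and like H3K27ac it sits at promoters and enhancers in use. H3K4me3 marks promoters in use, most of all those with CpG islands, which are stretches rich in CG dinucleotides. H3K27me3 is laid down by polycomb complexes at genes that are kept silent in a cell type, such as regulators of other lineages. White adipocytes store fat as triglyceride. PPARγ and C/EBPα, the products of Pparg and Cebpa, are the main transcription factors of their differentiation.

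The adipocyte label was set beside marker genes. The lists were compiled with earlier results of these data known, so the counts are a description and no independent check of the label. All 25 listed adipocyte identity genes had an H3K18la peak within 2 kb of a TSS in ADIPO, where 44.2% of all protein-coding genes had one. GAS had 16 of the 25 (34.9% of all genes), PIM 14 (37.0%), mESC-2i 9 (37.2%), mESC-ser 8 (32.7%), MT 8 (33.6%), BMDM 7 (17.5%) and MB 3 (10.1%). Markers of other cells had a peak in fewer cases, with 1 of 10 for endothelial cells (Egfl7), 4 of 10 for macrophages (Cd68, Spi1, Cd14 and Lyz2), 4 of 10 for adipose stromal cells (Cd55, Dcn, Lum and F3), 2 of 8 for brown adipocytes (Ppargc1a and Cox8b), 1 of 9 for T cells (Lck), 2 of 10 for smooth muscle and pericytes (Myh11 and Des), 1 of 10 for mesothelial cells (Wt1), 1 of 10 for epithelial cells (Krt8), 2 of 10 for skeletal muscle (Acta1 and Mylpf) and 1 of 10 for stem cells (Klf2). The 4 of 10 of macrophages and of stromal cells are near the 44.2% of all genes, and the other lists are below it. Among these lists, 1 gene had a TSS at one of the 500 domains, F3, which encodes tissue factor. The methods name female mice, while both ADIPO sets held peaks at the promoters of Eif2s3y and Uty, 2 of the 7 Y-linked genes searched, and neither had one at Xist. PIM (Ddx3y, Eif2s3y and Uty with H3K18la and H3K27ac, and 4 of the genes with H3K4me3) and BMDM (Ddx3y and Eif2s3y with H3K18la) had such peaks as well. The H3K27ac set of BMDM held a peak at none of the 7 genes and had one at Xist. The sex of these samples is thus uncertain. Chromosomes X and Y were not part of the selection.

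DNA at the strongest point of 5 domains is printed first, because the base composition there differs between the domains and other promoter peaks. Each line gives 300 bases of the plus strand, 5′ to 3′, from the GRCm38.p6 assembly, the same coordinates as the build mm10 of the peak sets. Each is centred on the stretch of maximum H3K18la signal in ADIPO, and capitals mark CG dinucleotides. The first is the widest domain, which covers the 3′ end of Pparg and the DNA beyond it (chr6:115523208-115523507). The second is the widest domain with no H3K18la peak in any other cell type, at Plin1 (chr7:79734661-79734960). The third is the widest with H3K18la in all 8 cell types, over Sfi1 (chr11:3123980-3124279). The fourth has the lowest cover by ADIPO H3K27ac, at the non-coding gene A730085K08Rik (chr9:122395828-122396127). The last, which covers Neat1 and has its strongest point upstream of Neat1 in the end of Frmd8, was also among the widest domains of all 7 other cell types (chr19:5850215-5850514).
Pparg domain: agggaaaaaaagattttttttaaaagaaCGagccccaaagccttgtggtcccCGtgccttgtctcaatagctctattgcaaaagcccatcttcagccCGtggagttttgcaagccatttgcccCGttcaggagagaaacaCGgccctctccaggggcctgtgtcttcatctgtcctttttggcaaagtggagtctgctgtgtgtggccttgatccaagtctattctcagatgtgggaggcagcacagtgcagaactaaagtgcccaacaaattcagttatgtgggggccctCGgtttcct
Plin1: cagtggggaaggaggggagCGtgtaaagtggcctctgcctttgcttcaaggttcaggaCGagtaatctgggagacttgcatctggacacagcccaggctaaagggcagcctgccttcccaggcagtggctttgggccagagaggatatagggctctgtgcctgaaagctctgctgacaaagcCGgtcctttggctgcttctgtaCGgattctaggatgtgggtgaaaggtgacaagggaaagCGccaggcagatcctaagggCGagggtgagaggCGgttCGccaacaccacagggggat
Sfi1: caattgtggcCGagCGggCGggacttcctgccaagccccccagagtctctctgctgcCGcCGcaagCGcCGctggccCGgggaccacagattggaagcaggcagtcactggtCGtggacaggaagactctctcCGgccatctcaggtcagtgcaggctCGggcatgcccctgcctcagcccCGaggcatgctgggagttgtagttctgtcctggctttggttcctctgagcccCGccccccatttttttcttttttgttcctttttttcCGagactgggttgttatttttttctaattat
A730085K08Rik: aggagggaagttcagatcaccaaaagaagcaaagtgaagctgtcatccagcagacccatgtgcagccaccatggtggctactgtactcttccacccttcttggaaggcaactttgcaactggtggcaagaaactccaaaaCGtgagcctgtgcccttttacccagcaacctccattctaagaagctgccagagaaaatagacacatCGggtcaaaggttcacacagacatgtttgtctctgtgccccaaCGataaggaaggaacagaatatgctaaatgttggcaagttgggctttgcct
Neat1: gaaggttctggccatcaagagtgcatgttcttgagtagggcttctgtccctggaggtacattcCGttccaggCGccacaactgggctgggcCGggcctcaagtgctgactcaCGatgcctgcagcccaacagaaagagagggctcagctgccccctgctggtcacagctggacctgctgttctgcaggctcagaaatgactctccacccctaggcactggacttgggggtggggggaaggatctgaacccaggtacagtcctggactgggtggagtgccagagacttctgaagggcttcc
The printed windows held 6 CG dinucleotides at the Pparg domain, 8 at Plin1, 14 at Sfi1, 3 at A730085K08Rik and 4 at Neat1. Over all 500 domains, the same 300-bp window held a median of 1.33 CG dinucleotides per 100 bases (quartiles 0.667 and 2.33). The next 500 widest promoter peaks had 1.67 and the other 12209 had 3.33 (quartiles 1.33 and 7). GC content of the window was closer, with medians of 53.7% and 56%. The CpG-poor strongest points of the domains are thus shared with the next 500, and they differ from those of narrower promoter peaks.

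The domains were between 9231 and 66428 bp wide, with a median of 13074 bp, while the other promoter peaks had a median of 1887 bp. They made up 3.93% of the promoter peaks, held 7.54 Mb or 9.98% of all bases called for H3K18la on chromosomes 1 to 19, and 15.1% of the signal. Choosing 500 by total signal in place of width kept 407 of them. Their maximum signal, the highest fragment coverage within the peak, had a median of 351 against 105 in the other promoter peaks, which placed the median domain at percentile 95.8 of the list. Mean coverage over a domain had a median of 51.7 against 29.7, so the domains were higher as well as wider. Across domains, width and mean coverage had a Spearman's rho of 0.32, as a description over 500 regions of 1 peak set.

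The limit of the list was a width of 9231 bp, at Mrvi1. Others just inside were the non-coding genes Gm3289 with 9271 bp and B230206L02Rik with 9239 bp, and a region in Gm20388 with 9252 bp. Just outside were Fzd4 with 9221 bp, Rpsa-ps5 with 9217 bp, Cd164l2 with 9216 bp, Akap1 with 9212 bp and Txnip with 9211 bp. The limit has no natural gap, since the first peak outside was 10 bp narrower than the last domain inside.

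The widest domain was 66428 bp wide and began inside the Pparg gene. Of its bases, 14681 lay in Pparg and 51747 lay past the 3′ end of the gene, and the only TSS within 2 kb was that of the non-coding gene Gm36355. A second domain of 14944 bp, rank 177, lay wholly within Pparg and was separated from the first by 390 bp. The widest H3K18la peak at a coding TSS of Pparg itself was narrower, with 7044 bp and rank 835, and so was not among the 500.

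Tns1, which encodes the focal adhesion protein tensin 1, held the second and sixth widest domains, with 62339 and 39052 bp. Cebpa held the third, with 57911 bp, and it had the largest total signal of all 500. This domain began just inside the short Cebpa gene and ran downstream of it. Amotl2, which encodes an angiomotin family protein of cell junctions, held a domain of 48258 bp. The fifth, 39369 bp wide, covered Hoxc4, Hoxc5, Hoxc6 and Hoxc8, homeobox genes that set position along the body axis.

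The other widest domains were at Cmklr1, the receptor of the adipokine chemerin, with 36282 bp, at Acacb, an acetyl-CoA carboxylase, together with Ung, with 35731 bp, and at Pcx, pyruvate carboxylase, together with 2010003K11Rik, with 35347 bp. The tenth was at Trp63, a relative of p53 best known from epithelia, with 34989 bp. Its maximum signal of 1340 was above that of the Cebpa domain (1176), and outside ADIPO it overlapped H3K18la in GAS alone.

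**Figure D1:**
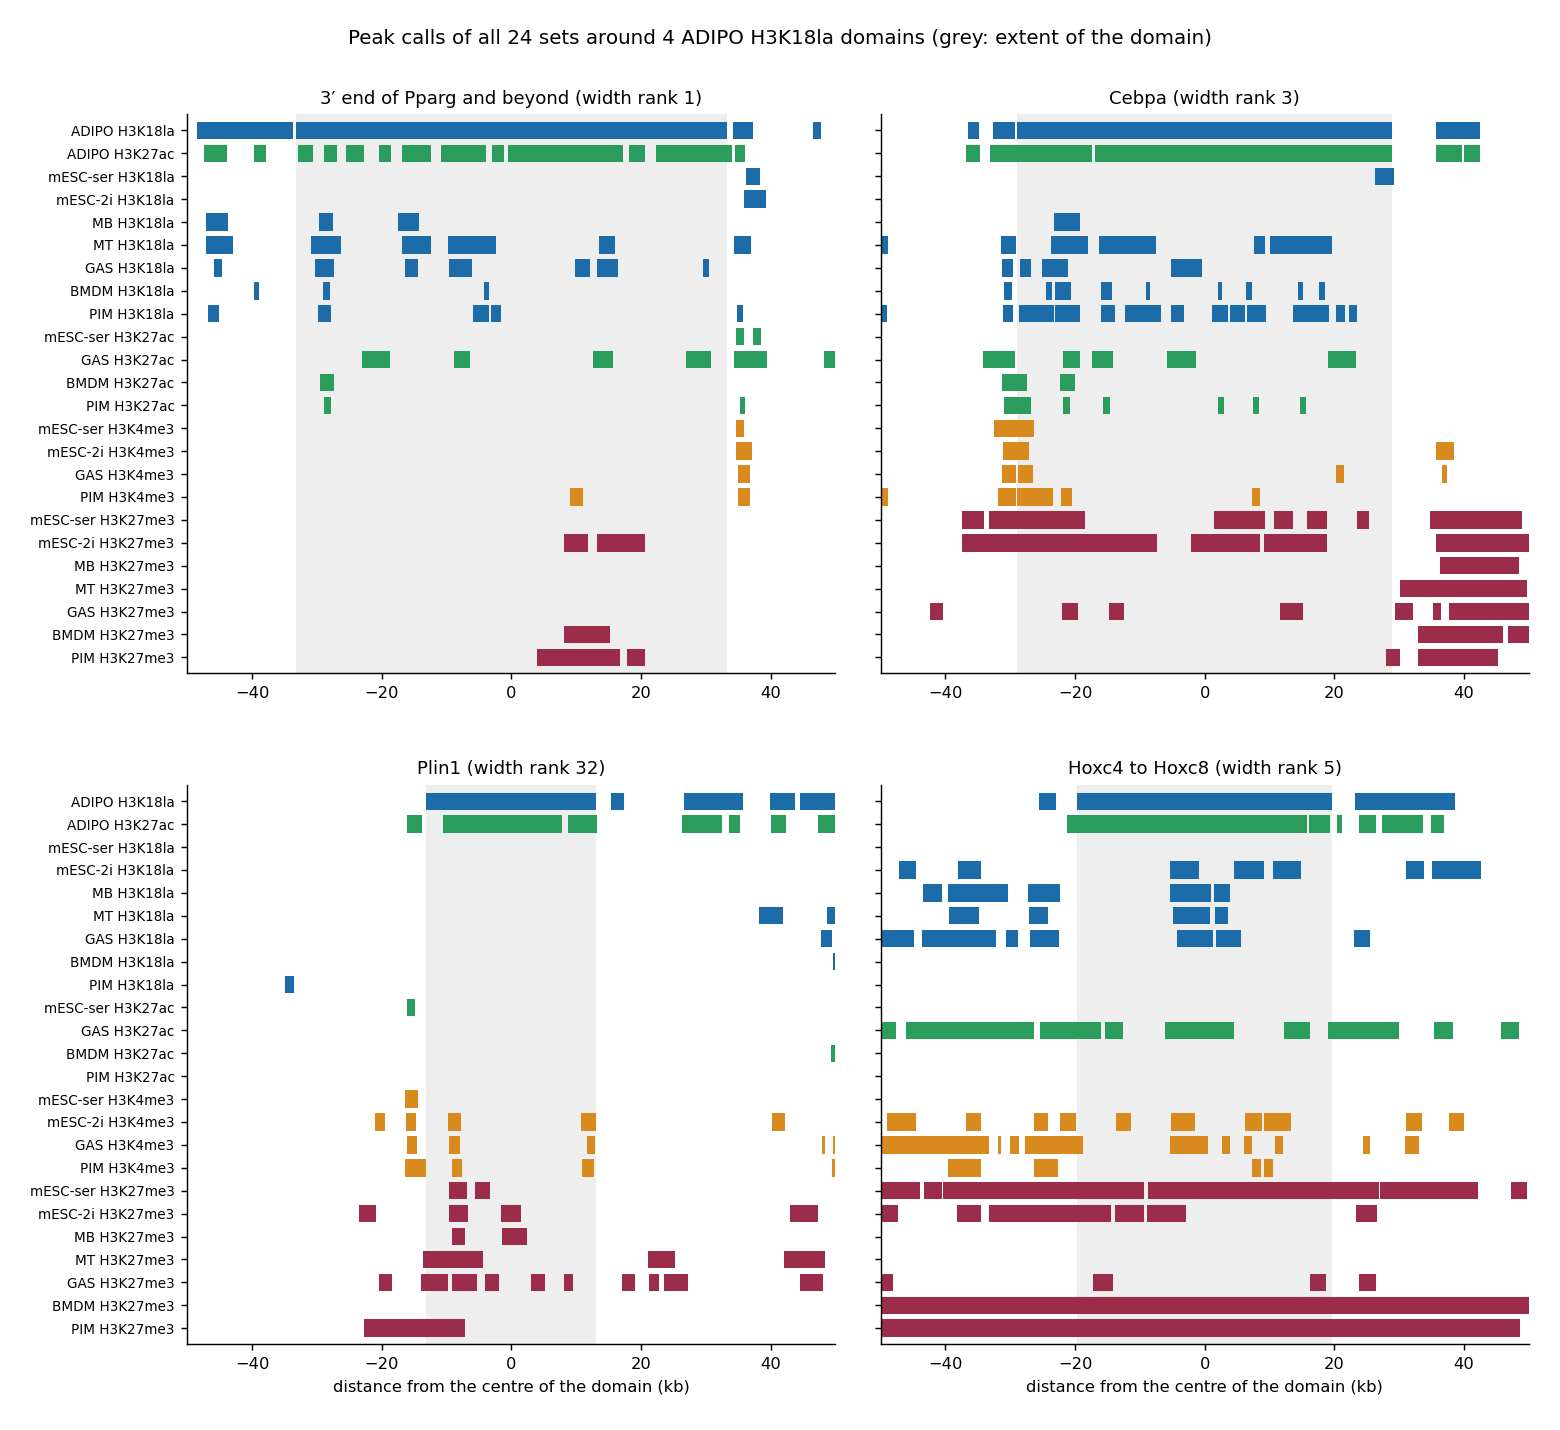
Peak calls of all 24 sets (rows) by distance in kb from the centre of 4 domains (grey band), with bars for called peaks coloured by mark. At the Pparg, Cebpa and Hoxc domains ADIPO H3K27ac covers 80.4%, 99.1% and 98.2% of the domain, and at Plin1 no H3K18la peak of another cell type overlaps it.

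Genes at the domains were read from the annotation. A TSS of a protein-coding transcript lay inside 304 of the 500 domains, and within 2 kb of another 27. The remaining 169 overlapped a promoter of a non-coding transcript only, and 108 of these lay in the body of a protein-coding gene. Of the 304, 253 held the TSS of 1 protein-coding gene, 40 of 2 genes and 11 of 3 or more. In all, 386 of 20698 protein-coding genes on chromosomes 1 to 19 had a TSS within 2 kb of a domain, which is 1.86% of them, and 44.2% had one within 2 kb of any ADIPO H3K18la peak.

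Genes of fat cell identity were frequent at the domains. Of the 25 genes of that list, 20 had a TSS within 2 kb of a domain, or 80%, beside 1.86% of all genes. The lists were compiled with earlier results of these data known, so the counts are descriptions without a test. The 21 domains concerned were 10042 to 57911 bp wide, with a median of 16522 bp. Lipid droplet proteins were among the widest after Cebpa, with Plin1 (perilipin 1), whose domain also held Pex11a and Wdr93, at 26303 bp, Plin4 at 21151 bp and Cidec, which promotes droplet growth, at 20311 bp.

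Secreted adipokines and lipases of the list had domains as well, some of them wider than those of Plin4 and Cidec. Lep, which encodes leptin, had a domain of 24503 bp and Cfd, which encodes adipsin, one of 23260 bp. Adipoq, which encodes adiponectin, had 10042 bp and rank 423. The lipases Lipe and Pnpla2, which release fatty acids from stored fat, had 21173 and 16522 bp. Receptors and carriers were Adrb3 with 14370 bp, Tshr with 14190 bp, Slc2a4, the insulin-responsive glucose transporter, with 13308 bp, and the fatty acid carrier Fabp4 with 18481 bp.

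Among the remaining genes of the list, the domains of Acsl1, Lrp1, Klf15, Thrsp, Lpl and Mrap had widths from 11604 to 16812 bp. The 5 genes of the list without a domain all had narrower promoter peaks. These were Retn with 8719 bp, Cd36 with 7456 bp, Pparg with 7044 bp, Ebf1 with 4559 bp and Aqp7 with 4013 bp.

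Among genes of lipid synthesis and storage, 11 of 22 were at a domain, or 50%. Beside Acacb and Pcx these were Srebf1, the transcription factor that drives lipid synthesis, with 34263 bp, the fatty acid synthase Fasn with 28208 and 9889 bp, and Dgat2, which makes triglyceride, with 24582 and 23003 bp. Agpat2 had 20454 bp, Scd1 14199 bp, Pck1 14050 bp, Lpin1 13029 bp, Acaca 10032 bp and Gpam 9752 bp. Pcx held 3 domains, the others of 14890 and 10540 bp.

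The other groups had lower shares. Transcription factors of fat cell differentiation were at a domain in 5 of 22 cases (Cebpa, Cebpb, Klf15, Ebf2 and Bcl6), insulin and adrenergic signalling genes in 4 of 19 (Irs1, Pik3r1, Prkar2b and Adora1), cytoskeleton and adhesion genes in 4 of 18 (Ahnak, Mylk, Cav1 and Cavin1) and extracellular matrix genes in 4 of 17 (Col4a1, Col6a3, Lama4 and Sparc). Glycolysis and lactate genes reached 2 of 18 (Hk2 and Pfkp), developmental regulators 2 of 20 (Hoxc8 and Meis1), immediate early genes 2 of 23 (Zfp36 and Klf6) and the circadian clock 1 of 17 (Cry2). None of 12 housekeeping genes and none of 15 genes for polycomb and histone acyl enzymes had a TSS at a domain, though 11 and 12 of them had a narrower H3K18la peak.

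**Figure D2:**
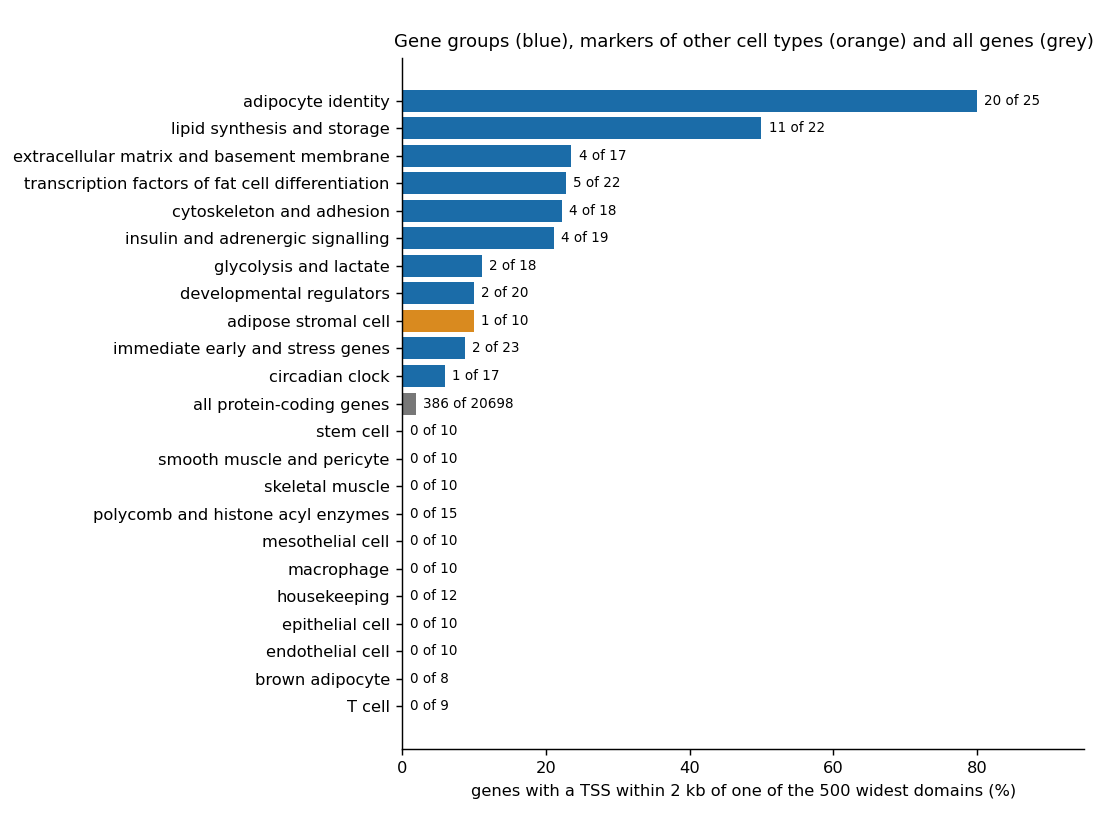
Share of the annotated genes of each list with a TSS within 2 kb of one of the 500 domains (x axis, %), with counts beside the bars. Adipocyte identity reaches 20 of 25 and lipid synthesis 11 of 22, and of the marker lists of other cells (orange) adipose stromal cell alone is above 0, with 1 of 10.

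Position at the TSS was measured for the domains with 1 gene. For the 253 domains with the TSS of 1 protein-coding gene, the median extent was 3357 bp upstream of the outermost TSS (quartiles 1415 and 7620 bp) and 8957 bp downstream (quartiles 6282 and 12056 bp). The downstream part was the longer in 183 of the 253. Counting from the outermost TSS favours the downstream part where a gene has several, and counted from the innermost TSS it was the longer in 152, with medians of 5042 bp upstream and 8071 bp downstream. Of the 112 domains with a single TSS position, 69 reached farther downstream. In 44 of the 253 the domain covered the whole gene, the genes had a median length of 28.2 kb, and the median share of a gene covered was 34.0%. Introns took a median of 72.2% of the bases of all 500 domains and exons 10.7%.

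Maximum signal lay near a TSS less often than in the other promoter peaks. The middle of the maximum stretch lay within 1000 bp of any TSS in 161 domains (32.2%), against 40.8% of the next 500 and 73.2% of the other promoter peaks. Its median distance to the nearest TSS of a protein-coding transcript was 6179 bp in the domains, 3428 bp in the next 500 and 446 bp in the other promoter peaks. It was over 5 kb away in 282 domains, or 56.4%. A wide peak leaves more room for its maximum to lie far from a TSS, so part of this follows from the selection.

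**Figure D3:**
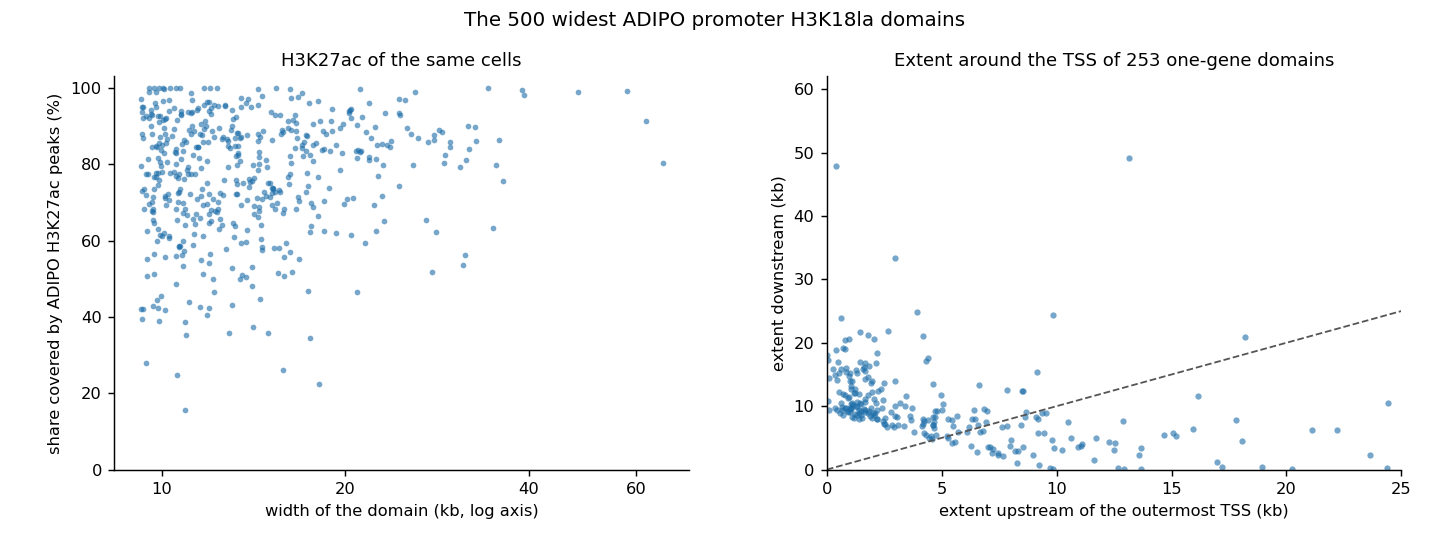
Left, width of each of the 500 domains (kb, log axis) against the share covered by ADIPO H3K27ac peaks (%), 1 point per domain. Right, extent upstream and downstream of the outermost TSS (kb) in the 253 domains with 1 protein-coding gene, where 183 points lie above the dashed line of equal extent.

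CpG islands, found in the genome sequence as stretches over 200 bp with at least 50% GC and an observed to expected CpG ratio above 0.6, overlapped 186 of the 500 domains (37.2%). They overlapped 50.5% of all promoter H3K18la peaks of ADIPO, and 36.6% of the next 500. In the 1000 bp around the maximum signal, which has the same size in each region, 8% of the domains held island sequence, against 13.4% of the next 500 and 45.3% of the other promoter peaks. Islands were thus present in many domains and seldom at their strongest point. There were 2 or more islands in 50 of the 500 domains, and in 7.63% of the other promoter peaks, which are narrower.

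Short motifs were searched on both strands of the 300-bp window at the maximum. The GC box GGGCGG was found in 15.2% of the domains, 21.2% of the next 500 and 37.2% of the other promoter peaks. The ETS motif CCGGAAG was found in 1.6% and 11.6% of the domains and the other peaks. The AP-1 motif TGANTCA was found in 9.4% and 7.4%, and the E-box CACGTG in 5.8% and 7.9%. The CRE TGACGTCA occurred in 1 domain, and the exact C/EBP palindrome TTGCGCAA, the NRF1 core GCGCATGCG and a direct repeat of AGGTCA with 1 base between, the PPAR-RXR element, were in none. The CRE was in 1.79% and the NRF1 core in 1.87% of the other windows, while the C/EBP palindrome (0.29%) and the PPAR-RXR element (0.057%) were rare in these as well. In the next 500 the CRE was in 0.2%, the NRF1 core in 0.4% and the C/EBP palindrome in 0.4%.

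In the 300 bases around the starts of 379 RefSeq promoters of genes with a TSS inside a domain, the GC box was found in 53.3%, against 36% of all 31396 promoters. The ETS motif was in 10.8% and 9.0%, and the E-box in 10.6% and 7.1%. GC boxes were thus less frequent at the strongest points of the domains than at those of other peaks, and more frequent in the promoters the domains contain than in all promoters. A match is a description of the sequence, not a binding site.

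H3K27ac of the same cells overlapped all 500 domains and 493 of the next 500, while 78.4% of all promoter H3K18la peaks overlapped it. On average 77.1% of a domain was covered by ADIPO H3K27ac, against 70.8% in the next 500 and 60.5% in the other promoter peaks. At least 50% of the bases were covered in 467 of the 500 domains, and in 69.3% of the other promoter peaks. At least 90% were covered in 111 domains. Full or nearly full cover was not more frequent in the domains, since the upper quartile was 88.9% in them and 92.4% in the other promoter peaks. In the 1000-bp window at the maximum the cover was 98.3%, against 95.1% in the next 500 and 71.2% in the other promoter peaks. One ADIPO H3K27ac set gives 1 value, so no test applies.

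H3K27ac was called as separate peaks within many of the domains. There was 1 H3K27ac peak in 135 domains, 2 to 4 in 356 and 5 or more in 9, with the most, 10 peaks, in the widest domain beyond Pparg. The strongest points of the 2 marks lay within 500 bp of each other in 292 of the 500 domains. This was less frequent than in the other promoter peaks with H3K27ac, where the share was 76.5%. The points were over 5 kb apart in 100 domains. Of the domains, 286 (57.2%) overlapped one of the 500 widest promoter H3K27ac peaks of ADIPO, and 301 of those (60.2%) overlapped a domain. The same share was not computed for the other promoter peaks or the next 500. Lists of wide regions also reach an overlap easily, so these shares are a description only.

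The lowest H3K27ac cover among the domains was 15.5%, at A730085K08Rik. Gm10717 and its neighbours followed with 22.4%, then a region in Col15a1 with 24.8%, a region in Grin2b with 26.0%, and Ttc25 with 28.0%. The Grin2b region, 15817 bp wide, and the A730085K08Rik region overlapped no H3K18la peak of another cell type. Adipocyte identity genes had higher values, between 67.8% at Thrsp and 100% at Adipoq and Klf15, with a median of 90.7% over their 21 domains.

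Some domains lie where nearly every set had peaks. Of the other promoter peaks, 0.09% overlapped 20 or more of the 23 sets beside ADIPO H3K18la, which a wide region reaches more easily. There were 5 domains that overlapped 20 or more of the other 23 sets. These were the 2 domains over Sfi1 on chromosome 11 (22 and 20 sets), the Gm10717 region on chromosome 9 (22 sets), Igsf8 (20 sets) and Pank3 (20 sets). The Gm10717 region had the highest maximum signal of all domains, 10014, and 96.3% of its bases were masked as repeats, against a median of 19.5%. Its neighbours Gm10718 to Gm10721 are near copies, so reads there could be split among them. Without regions of this kind, the mean difference in cover between domains and other promoter peaks was -6.28 points for H3K18la, -12.8 for H3K27ac and -37.9 for H3K4me3, against -6.01, -12.6 and -37.6 with them. For H3K27me3 and the shares of domains by cell type, the values without them stand beside the results.

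H3K18la in the other cell types was less extensive over the domains than over other promoter peaks in 5 of 7 cell types, and the difference was not larger than the spread between cell types. GAS covered the domains most, with a mean of 48.0% against 42.2% of the other promoter peaks. MT covered 32% against 37.9%, mESC-2i 26.9% against 39.8% and mESC-ser 21.7% against 31.6%. PIM covered 17.7% against 32.8%, MB 10.8% against 9.57% and BMDM 6.44% against 11.7%.

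Muscle tissue and myoblasts were thus higher over the domains and the other 5 lower. Over the 7 cell types the difference was -6.01 ± 7.52 percentage points (SD, n = 7). An exact permutation test that flips the signs of the 7 differences, two-sided, gave p = 0.109 (adjusted p = 0.109, Benjamini-Hochberg over 2 tests). Against the next 500 it was -1.40 points (exact p = 0.234), and in the 1000-bp window at the maximum -1.72 ± 9.41 points (exact p = 0.62). In windows with an island (40 domains) H3K18la of the other cell types covered 52.8% on the domains and 38.5% on the other peaks, higher in 7 of 7, and in windows without one 28.4% and 26.7%, higher in 3 of 7. The sets differ in how much of the genome they call, from 0.904% in BMDM and 1.63% in MB to 4.95% in GAS, 5.11% in mESC-2i and 5.50% in MT, and the order of the cell types follows this in part. In GAS, which had the highest cover, 16 of 25 adipocyte identity genes and 10 of 10 endothelial markers had an H3K18la peak, so that tissue holds signal of several cell types. Their part in the result was not tested.

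The call for H3K18la depended on how peaks were weighed. With the 5000 peaks of largest total signal in each other set, the domains were covered more than the other promoter peaks in 7 of 7 cell types, by 5.43 points on average (exact p = 0.0156, adjusted p = 0.0156). With bases pooled over regions the difference was -6.12 points (exact p = 0.0469, adjusted p = 0.0469).

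Most domains had some H3K18la peak in other cell types. A peak of GAS overlapped 392 domains (78.4%, beside 53.1% of all promoter H3K18la peaks), of MT 325 (65%, beside 45.7%), of PIM 259 (51.8%, beside 47.6%), of mESC-2i 239 (47.8%, beside 43.8%), of mESC-ser 235 (47%, beside 37.4%), of MB 157 (31.4%, beside 13.4%) and of BMDM 157 (31.4%, beside 23.2%). A single base of overlap is reached more easily by a wide region. In the 1000 bp at the maximum, GAS was at 328 domains (65.6% of them against 50.4% of the other promoter peaks) and MB at 78 (15.6% against 11.7%), while mESC-ser was at 140 (28% against 35.4%) and PIM at 146 (29.2% against 45.0%).

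**Figure D4:**
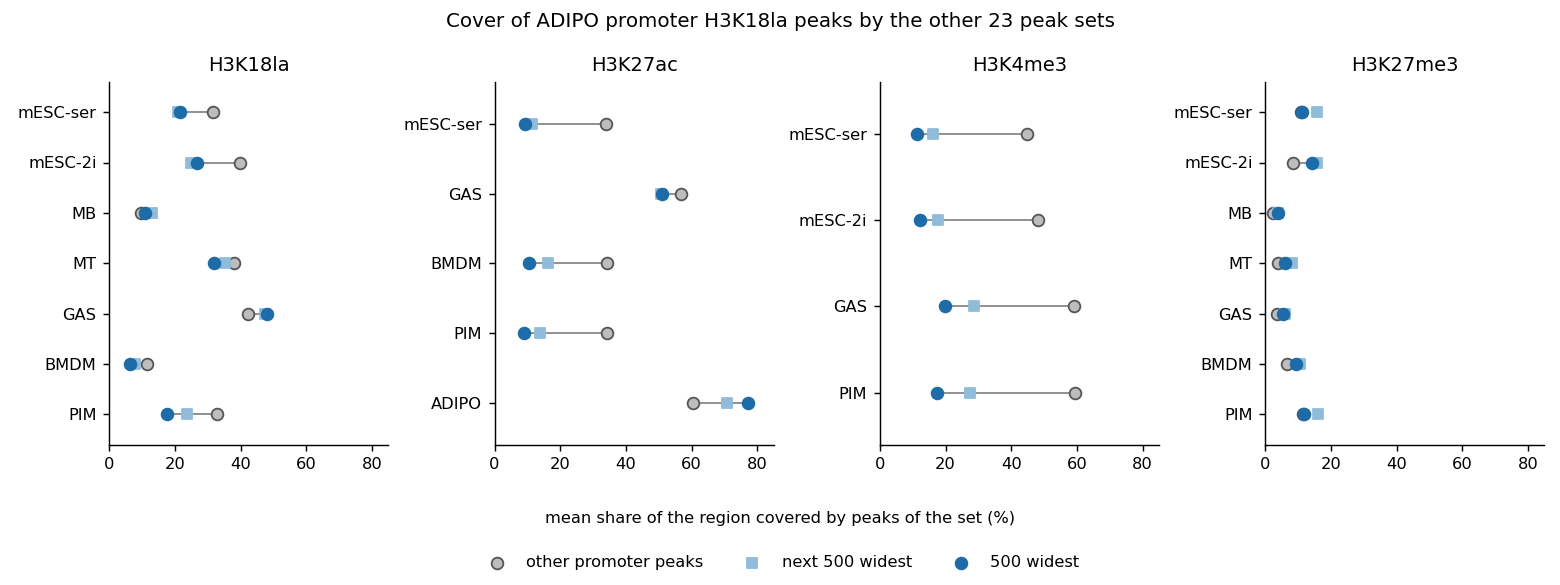
Mean share of a region covered by peaks of each of the other 23 sets (x axis, %), by mark and cell type, for the 500 domains, the next 500 widest and the other promoter peaks. ADIPO H3K27ac is higher on the domains (77.1% against 60.5%), and H3K4me3 is lower on them in each of its 4 sets.

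H3K18la was called in all 8 cell types at 52 domains (10.4%, beside 3.85% of all promoter H3K18la peaks), and in ADIPO alone at 46 (9.2%, beside 19%). Without the 5 domains that overlapped 20 or more sets the shares were 9.90% and 9.29%. At the maximum, where region size is equal, 4.2% of the domains had H3K18la in all 8 cell types and 20.4% in ADIPO alone, against 3.04% and 20.9% of the other promoter peaks. With at least 50% of the region covered, the shares were 1% and 36%, against 1.55% and 24.6% of the other promoter peaks and 1.2% and 34.4% of the next 500. Whether the domains were more or less often in ADIPO alone than other promoter peaks thus depended on how overlap was counted.

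The widest domains with H3K18la in ADIPO alone were at Plin1 (26303 bp), at Mylk, myosin light chain kinase (25613 bp), over a region that includes part of G6pc (23179 bp), at the non-coding gene Gm15519 (22456 bp) and at Pemt, which makes phosphatidylcholine (18481 bp). ADIPO H3K27ac covered 86.8%, 87.9%, 65.0%, 81.3% and 70.5% of them. H3K27me3 of other cell types overlapped each of them, in 6 of 7 cell types at Plin1 and at G6pc, 3 at Mylk and 2 at Gm15519 and Pemt. Tshr and Mrap were the other adipocyte identity genes with a domain of ADIPO alone, and Acaca, Pck1 and Adora1 were such genes in other lists.

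The widest domains with H3K18la in all 8 cell types were one over Sfi1, then Ksr1 (27728 bp), Neat1 (26080 bp), a region at Mir21a and the 3′ part of Vmp1 (23774 bp) and Myl6b with Myl6 (23457 bp). Neat1 is the RNA scaffold of paraspeckles, and 84.7% of its domain was exon. Other cell types covered the Neat1 domain by 28.5% (BMDM) to 99.7% (MT), and the Mir21a region by 50.1% (mESC-2i) to 92.9% (MT). Of the adipocyte identity domains, Lrp1 alone had H3K18la in all 8 cell types.

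**Figure D5:**
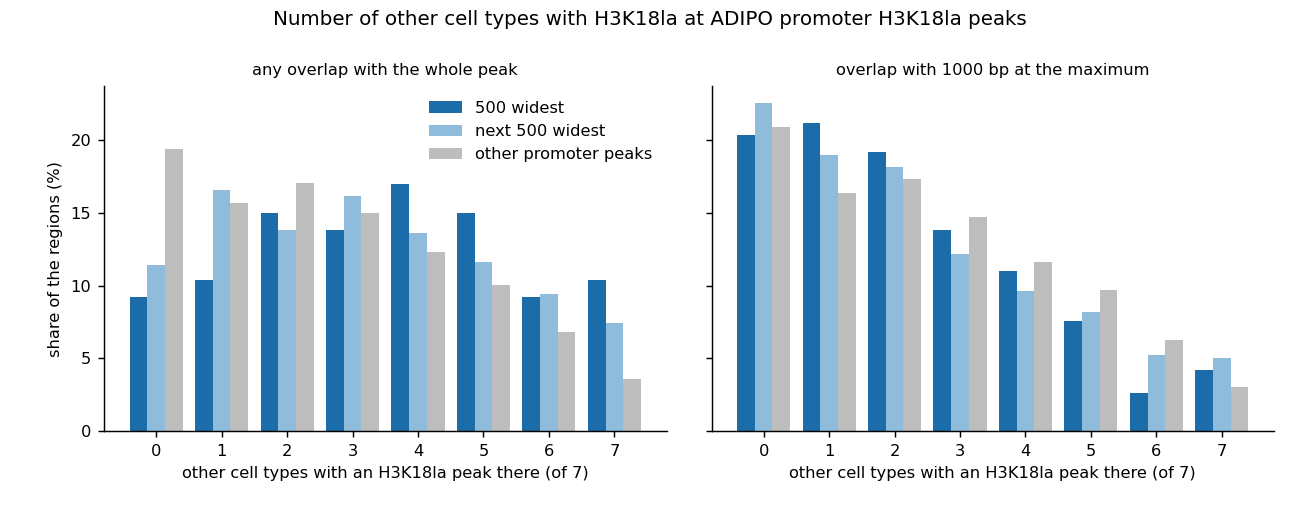
Share of the regions (y axis, %) by the number of other cell types with an H3K18la peak there, for any overlap with the whole peak (left) and for the 1000 bp at the maximum (right). On the left 9.2% of the domains and 19.4% of the other promoter peaks are at 0, and on the right 20.4% and 20.9%.

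Great width was shared with another cell type at a minority of the domains. Of them, 170 (34%) overlapped one of the 500 widest promoter H3K18la peaks of at least 1 other cell type, beside 13.8% of all promoter H3K18la peaks and 23.6% of the next 500, and 29 did so in 3 or more. In the 1000-bp window at the maximum the shares were 28.8% of the domains, 21.6% of the next 500 and 12.7% of the other promoter peaks. GAS shared the most, with 89 domains (17.8%, against 9.6% of the next 500 and 3.31% of the other promoter peaks) and 87 of its own 500 (17.4%). MT shared 46 domains (9.2%) and 45 of its own (9%), and the stem cells 40 each (8%), which is 41 (8.2%) of mESC-ser and 36 (7.2%) of mESC-2i. PIM shared 39 (7.8%) and 40 of its own (8%), MB 31 (6.2%) and 32 (6.4%), and BMDM 28 (5.6%) and 33 (6.6%). Of the next 500, MB shared more (7.2%), and the stem cells, MT, PIM and BMDM shared less, from 4% (BMDM) to 5.8% (MT and PIM). Outside GAS, the shares of the other promoter peaks were 1.94% (BMDM) to 4.13% (mESC-2i). In the 1000-bp window the domains were below the next 500 in MB (4.6% against 6.6%), PIM (5.2% against 5.6%) and BMDM (2.6% against 3%). They were above them in GAS, MT and both stem cell sets.

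The narrowest of the 500 widest ranged from 2425 bp in BMDM to 21240 bp in mESC-2i, so a rank stands for different widths. Neat1 was among the widest of all 7 other cell types, and both Sfi1 domains, Ahnak and Zfp36 of 6. Ahnak encodes a very large scaffold protein and Zfp36 an RNA-binding protein that destabilises inflammatory mRNAs. Their domains were 13439 and 9702 bp wide, and at Zfp36 at least 66.6% was covered by H3K18la in every other cell type.

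H3K4me3 covered the domains less than the other promoter peaks in all 4 of its sets. The means were 20% against 59.0% in GAS, 17.5% against 59.3% in PIM, 12.1% against 48.1% in mESC-2i and 11.2% against 44.8% in mESC-ser. The difference was -37.6 ± 3.60 points (SD, n = 4; exact permutation p = 0.125, the smallest that 4 sets allow). Cover is a share of the width that chose the domains, and a mean of 39.9% of a domain lay within 2 kb of a TSS, against 86.1% of the other promoter peaks. The comparison is therefore not independent of the selection, and how much of the difference follows from it was not tested. In the 1000-bp window at the maximum, where size is equal but the distance to a TSS is not, the difference was -36.0 points. Against the next 500 it was -7.32 points, in the same direction in 4 of 4 sets.

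CpG islands moved with this difference. In windows with an island at the maximum (40 domains and 5526 other peaks), mean H3K4me3 cover of the window was 83.4% and 89.3%. In windows without one it was 16.2% and 31.4%, and the domains were lower in each of the 4 sets. The part of the islands in the result was not tested further.

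H3K27ac of other cell types was also lower over the domains. It covered 9.22% against 34.0% in mESC-ser, 10.4% against 34.2% in BMDM, 9.11% against 34.2% in PIM and 50.9% against 56.9% in GAS. With ADIPO included the difference was -12.6 ± 18.2 points (SD, n = 5; exact permutation p = 0.188, where 5 sets allow no less than 0.0625). Without ADIPO it was -19.9 points in 4 sets, each lower, so among the 5 sets H3K27ac covered whole domains more than other promoter peaks in ADIPO only. In the 1000-bp window at the maximum GAS was level, at 58.1% and 58.0%, and the other 3 sets stayed lower, at 14% to 15.3% against 39.0% to 44.1%. Against the next 500 the difference over the 5 sets was -1.24 points (exact permutation p = 0.62), with GAS at 50.9% and 50.6%.

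H3K27me3 of the other cell types covered the domains slightly more than the other promoter peaks. The means were 14.3% against 8.35% in mESC-2i, 11.9% against 11.4% in PIM, 11.2% against 10.9% in mESC-ser and 9.45% against 6.66% in BMDM. In the muscle lineage they were 6.11% against 4.01% in MT, 5.46% against 3.48% in GAS and 3.88% against 2.25% in MB. The difference was 2.18 ± 1.87 points, higher in 7 of 7 cell types (SD, n = 7), and the same exact permutation test gave p = 0.0156, its smallest possible value, with an adjusted p of 0.0312. The test takes the 7 cell types as separate units, although all share the same domains and comparison peaks, 2 are the same E14 line and MT derive from MB, so this p may be too small.

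The difference was 2.97 points in the window at the maximum, 4.76 with 500 chosen by total signal, 3.83 with coding TSS only and 3.36 with the 1000 widest, each at the smallest p that the test allows. In windows without an island (460 domains) H3K27me3 covered 9.07% on the domains and 7.96% on the other peaks, higher in 5 of 7, and in windows with one (40 domains) 17.7% and 5.37%, higher in 7 of 7. Without the domains and promoter peaks that overlapped 20 or more of the other sets it was 1.86 points, higher in 6 of 7 (exact p = 0.0469, adjusted p = 0.0938). Against the next 500 it turned to -2.0 points, lower in 6 of 7 (exact p = 0.0312, adjusted p = 0.0625). The domains were thus not higher in H3K27me3 than the promoter peaks nearest to them in width.

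Some H3K27me3 peak of another cell type overlapped 274 domains (54.8%, beside 27.4% of all promoter H3K18la peaks), and all 7 cell types at 10 (2%, beside 2% of the next 500 and 0.69% of the other promoter peaks). A wide region reaches a single base of overlap more easily, and 54% of the next 500 had no such peak. With at least 50% of the region covered, 75% of the domains had H3K27me3 in no cell type, against 68% of the next 500 and 78.0% of the other promoter peaks. At least 50% of a domain was covered in 4 or more of the 7 cell types at 17 domains (3.4%, beside 3.71%), or 14 without the 5 that overlapped 20 or more sets. The widest of these were the 2 at Sfi1 and the one at Gm10717, then the non-coding genes Gm14279 and Gm14287 (15146 bp) and Hoxb4 with Hoxb3 (14613 bp). The Hoxb domain was covered by H3K27me3 over 85.9% to 100% in mESC-ser, mESC-2i, MB, MT and GAS and by none in BMDM or PIM.

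The Hoxc domain was covered completely by H3K27me3 in BMDM and PIM, over 98.4% in mESC-ser 39.6% in mESC-2i and 14.1% in GAS, by none in MB or MT, and by H3K27ac in ADIPO over 98.2%. Ebf2, a transcription factor of fat precursors, carried H3K27me3 in all 7 cell types, over 32.7% (GAS) to 97% (BMDM) of its domain. Adora1, the adenosine receptor of adipocytes, had H3K27me3 over 20.5% (GAS) to 100% (MT and BMDM).

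Adipocyte identity domains carried H3K27me3 in other cells in varied patterns. Of the 21, 10 overlapped H3K27me3 of mESC-2i (28.2% of all 500 domains did), 9 of GAS (17%), 8 of mESC-ser (28.8%), 8 of PIM (25.6%), 7 of MB (11.6%), 6 of MT (13.8%) and 6 of BMDM (19.8%). The Lep domain was covered over 86.3% in mESC-2i, 83.8% in MT and 66.2% in GAS. The Tshr domain had the mark in all 7, from 18.6% in MB to 92.2% in MT, while those of Acsl1 and Thrsp had it in none. Domains of the other lists varied as well. Those of Cebpb, Srebf1, Fasn and Acaca had it in none, those of Gpam and Irs1 in 4, and those of Ebf2 and Adora1 in all 7.

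H3K18la of other cells over the same 21 domains was most frequent in GAS, at 14, then MT and PIM at 10 each, mESC-ser at 9, mESC-2i at 8, and MB and BMDM at 5 each. Over all 500 domains the shares were 78.4% in GAS, 65% in MT, 51.8% in PIM, 47% in mESC-ser, 47.8% in mESC-2i and 31.4% each in MB and BMDM, and these differences from the 21 were not tested. The Cebpa domain was covered by H3K18la over 60.5% in PIM, 44.6% in MT, 17.7% in GAS and 15.6% in BMDM, and by H3K27me3 over 72.3% in mESC-2i and 45.3% in mESC-ser. The Fabp4 domain was covered over 70.5% in GAS and 23.3% in PIM. The Cebpb domain, of the list of differentiation factors, was covered over 98.6% in MT, 79.7% in PIM and 59.2% in GAS.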

How the data were processed

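The analysis starts from 24 deposited peak lists, 1 per cell type and mark. The authors trimmed reads with Trim Galore 0.6.6, aligned them to mm10 with Bowtie2 2.4.4, pooled the coverage of biological replicates and called peaks with SEACR 1.3 (versions from the submitters' processing notes). The authors deposited for each peak a score, its total signal (fragment coverage summed over bases), and the maximum signal within it. The authors did not scale this signal for depth, so it was compared only within a list. The peak files hold no read totals, so no value here has a counting interval. The study lists reads per sample in a quality table, not used here beyond the shallow H3K27ac library. The GENCODE M21 annotation and GRCm38.p6 sequence were used. Cover is the share of a region's bases in peaks of another set. Members minus other promoter peaks was tested over cell types by an exact sign-flip permutation test, with adjustment over 2 tests (Python 3.11.15, numpy 2.4.6, pandas 2.3.3), and code was checked on simulated intervals. Whether replicates were separate animals or cultures does not enter, since sets are pooled. Alternatives changed the comparison, window, number, ranking, TSS, promoter, peak set and weighting. Named regions are the 10 widest, those at the limit, those with listed genes, and 5 per class (ADIPO alone, all 8, H3K27me3, lowest H3K27ac, widest elsewhere). Some of these regions are not reported here. Individual genes beyond that rule were chosen after their values were seen. The members and lists were chosen with earlier results of these data known.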

Additional observations from a re-analysis of the deposited data

Results flagged for a closer look

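Chromosome X was not part of the selection, and 1 of its 265 promoter H3K18la peaks in ADIPO was at least as wide as the narrowest domain. It lay at Apex2 and Pfkfb1, was 9945 bp wide, and Pfkfb1 encodes an enzyme that sets the level of a regulator of glycolysis.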

How the results depend on the processing

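For H3K18la, the sign turned with the 5000 strongest peaks per set (5.43 points) and the value passed 0.05 with pooled bases (-6.12 points). It kept its sign and missed 0.05 under the other choices, shrank to -1.40 against the next 500, -1.72 in the 1000-bp window and -3.84 with nuclei only, and leaving out 1 cell type gave -7.98 to -4.49. For H3K27me3 it turned to -2.0 against the next 500 and -2.19 with the 1000-bp window added (an alternative added after seeing the data). It lost the call without regions in 20 or more other sets (1.86 points, added likewise). With nuclei only (1.80 points, higher in 5 of 5) and without any 1 cell type (1.55 to 2.48 points, higher in 6 of 6) the exact permutation test gave its smallest p, 0.0625 and 0.0312 before adjustment, so these say nothing of stability. H3K27ac shrank to -1.24 against the next 500 and turned to 5.39 with the 5000 strongest peaks. H3K4me3 stayed negative, at -7.32 against the next 500, -9.01 with the window added, -43.8 with coding TSS, -41.6 with promoters of 1000 bp, -17.3 with the 5000 strongest peaks and -30.9 with pooled bases. Members with H3K18la in all 8 cell types were 1% with at least 50% of the region covered, 4.2% in the window and 2.2% with the 5000 strongest peaks, and those of ADIPO alone 36%, 20.4% and 31%. A CpG island in the window was found in 8%. The cause of these changes was not tested. No paired analysis was possible because replicates were pooled into 1 peak set per group before deposit. Peaks with a gap between them count as separate regions, with 276 bp as the smallest gap between 2 domains, so widths depend on the peak caller, and 84 domains lay within 10000 bp of another.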

Other observations

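Domains were spread unevenly over chromosomes. Chromosome 19 held 27, or 4.40 per 10 Mb, and chromosome 11 held 47, or 3.85 per 10 Mb, against 0.812 on chromosome 3 and 0.882 on chromosome 18. As a share of promoter H3K18la peaks the range was narrower, from 2.12% on chromosome 3 to 6.05% on chromosome 19. Neighbouring domains were common, with 159 of the 500 within 50000 bp of another and a median gap of 299 kb to the nearest one.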
